A study of Homo sapiens with 12 samples.

Results

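Isoform usage was compared between YT cells carrying a CD16 fusion receptor, FR1 or FR2, and YT cells carrying eGFP or hnCD16. Isoform usage here was the share of each transcript in the summed read count of its gene, so that a gene could change its mixture of transcripts while its level stayed where it was. A gene entered the comparison when its transcripts together held 100 or more counts in every one of 12 libraries and when it had 2 or more transcripts. Of 17589 genes, 6836 met both conditions (38.9%), with 50717 of the 85704 transcripts and 72.5% of all counts. Of these transcripts, 28099 were curated RefSeq entries (NM) and 22618 were predicted ones (XM), and the median gene had 5 transcripts. IFI6 was just inside the count rule, with 100 counts in its lowest library, and MANSC1 was just outside, with 99.8.

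YT is a human lymphoma cell line described as NK-like. Control cells (CTRL) were transduced with a lentiviral vector for eGFP. The second group received hnCD16, a high-affinity and non-cleavable CD16a whose cytoplasmic tail is that of CD16a itself. The FR1 receptor joins the hnCD16 ectodomain and transmembrane part to the cytoplasmic domains of 2B4, DAP10 and CD3ζ. FR2 has the same ectodomain with DAP10 and CD3ζ only. The receptors were driven by the constitutive hEF1A promoter, eGFP-positive cells were sorted and expanded, and no stimulus is named for the cells sequenced. Each of the 4 groups had 3 libraries. The 6 FR1 and FR2 libraries are called the FR pair, and the 6 CTRL and hnCD16 libraries the CTRL/hnCD16 pair. The labels do not say whether libraries of a group came from separate cultures, so p-values measure the spread between these libraries, which may be technical.

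Most human genes give rise to several mRNAs, through alternative promoters, splice sites, whole exons or polyadenylation sites. Lymphocytes use this to change receptors and signalling proteins without a change in gene level, and the phosphatase CD45 is the best known example. Short reads from transcripts of one gene overlap, so the counts of its isoforms are estimates that divide shared reads among the annotated transcripts.

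The libraries held between 17714567 and 18729018 counts. The labelled cell type was checked with marker lists. NK cell markers summed to 4638 to 4860 CPM (gene counts scaled to the library total) in the FR pair and to 96.4 to 112 CPM in the CTRL/hnCD16 pair, with 11 of 19 genes higher in the FR pair (among them NCAM1, NCR1, KLRC1, EOMES, TBX21, GNLY and PRF1) and 3 lower. T cell markers went the other way, from 131 to 178 CPM in the FR pair and from 1224 to 1473 CPM in the CTRL/hnCD16 pair, with 15 of 17 genes lower in the FR pair (CD1A, CD3D, CD3E, CD3G, CD4, CD5, CD8A, RAG1 and others). Of these 17 genes, 10 had 3 counts or fewer in every FR library, CD3D, CD4 and CD8A among them, and none did in the CTRL/hnCD16 libraries. The NK markers KLRF1 and TYROBP were as low in every FR library, and KLRF1 in every CTRL/hnCD16 library. B cell markers summed to 42.3 to 52.7 CPM and 42.3 to 51.4 CPM, and myeloid cell markers to 5.30 to 10.6 CPM and 5.18 to 7.10 CPM. The marker profile of the libraries labelled CTRL and hnCD16 therefore went against an NK-like label, while that of the libraries labelled FR1 and FR2 did not. Receptor and cell background cannot be told apart in any comparison between the pairs, and only hnCD16 against CTRL and FR1 against FR2 stay within one background.

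A transcript was called when its adjusted p was at most 0.05 (edgeR diffSpliceDGE, Benjamini-Hochberg over all transcripts tested) and its mean share differed by at least 10 percentage points between the pairs. The test compares the log fold change of a transcript with that of its gene, not the shares themselves. A large shift in points can therefore go with a large p. Of 40803 transcripts tested in 6717 genes, 488 were called (1.2%), 240 with a higher share in the FR pair (0.588%) and 248 with a lower share (0.608%). They lay in 376 genes (5.6% of genes tested). A second edgeR test, with the gene total as offset, also called 339 of the 488 (0.831% of those tested), in 267 genes (3.97%). The median called transcript shifted by 21.2 points, against 1.96 points over all transcripts tested, where the rule of 10 points itself raises the first value. Of the called transcripts, 63 in 43 genes shifted by 50 points or more. Within a group, the SD of a share had a median of 3.14 points and a 90th percentile of 10.02 points. Shares with ± below are the mean and SD over the 6 libraries of a pair, with the CTRL/hnCD16 pair first where a share goes from one value to another.

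In 356 of the 488 called transcripts (73.0%) the 6 FR libraries did not overlap with the 6 CTRL/hnCD16 libraries, against 7.41% of all transcripts tested. The calls were chosen by p and shift in these same libraries, so this contrast describes them and is no separate support. Of the called transcripts, 124 had no count in any library of one pair, 63 of them in the CTRL/hnCD16 pair and 61 in the FR pair. The share among all transcripts tested is not given here, so these counts only describe the calls. The filter asked for 10 or more counts in only 3 libraries, so transcripts absent from one pair could enter. In 72 genes both a rise and a fall were called, in 147 genes only a rise, and in 157 genes only a fall. Shares of a gene add up to the whole, so in the latter genes the opposite movement was present but not called. The leading transcript is the one with the largest mean share. In 130 genes (1.94% of genes tested) it differed between the pairs and a leading transcript of either pair was called. In 40 of these genes it was one transcript in all libraries of the FR pair and another in all libraries of the CTRL/hnCD16 pair. A change of leading transcript without such a call, as in HCST, was not counted.

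**Figure D1:**
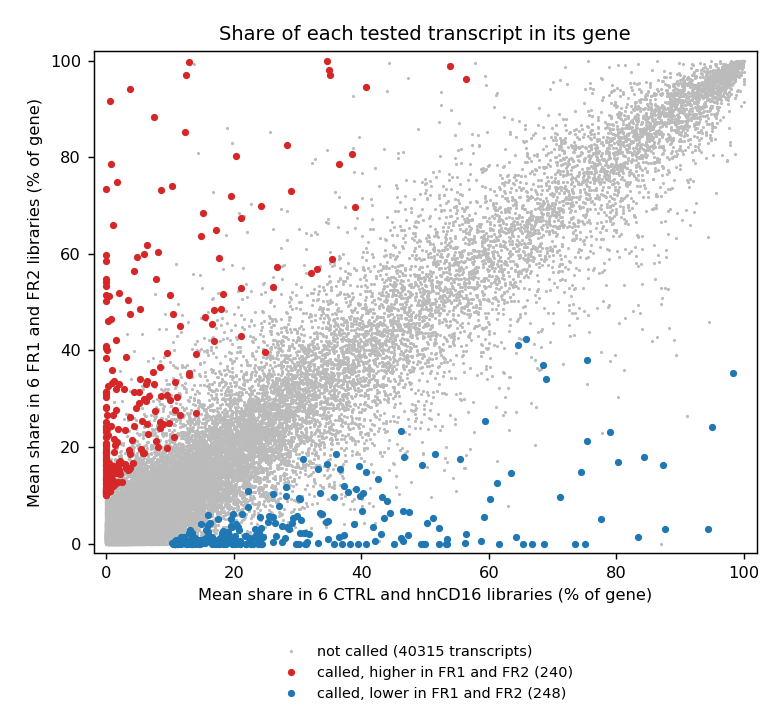
Mean share of each tested transcript in its gene, in percent, in the 6 CTRL and hnCD16 libraries (horizontal) and the 6 FR1 and FR2 libraries (vertical). Grey points are the transcripts not called, and the 240 red and 248 blue points are those called higher and lower in the FR pair, many of which sit on an axis because one pair held almost none of that transcript.

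The gene with the most share moved was CD59, which encodes a membrane protein that blocks the complement membrane attack complex. The gene shift, the points of share that moved from some transcripts to others, was 98.0 for CD59, against a median of 31.8 in genes with a call and 9.40 in all genes compared. NM_000611 made up 69.5% to 79.2% of CD59 counts in the CTRL/hnCD16 pair (median 73.0%) and had no count in any FR library, and its mean share fell by 73.4 points (edgeR adjusted p = 1.57e-19). In its place NM_001127226 held 28.6% to 52.3% in the FR pair (median 39.9%) and NM_001127225 held 29.2% to 48.0% (median 40.7%), and neither had a count in any CTRL or hnCD16 library. Their shares rose by 40.4 points (edgeR adjusted p = 6.37e-15) and 38.5 points (edgeR adjusted p = 1.69e-14). The level of CD59 hardly moved, with a log2 fold change of 0.12, so the exchange was one between transcripts of a gene at a similar level. The lengths of NM_001127226 and NM_000611, estimated from the deposited counts and TPM, differed by 48.7 ± 1.54 bases (SE).

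PARP2, a poly(ADP-ribose) polymerase that responds to DNA breaks, had a gene shift of 94.1 points. The share of NM_001042618 was 0%, 0.386% and 2.52% (lowest, median and highest library) in the CTRL/hnCD16 pair and 70.6%, 79.0% and 84.0% in the FR pair, a rise of 77.8 points (edgeR adjusted p = 1.11e-07). NM_005484 held 52.1% to 70.8% in the CTRL/hnCD16 pair and at most 4.81% in the FR pair, and its mean share fell by 62.8 points (edgeR adjusted p = 5.86e-08). The predicted XM_005267247 held 31.3% ± 6.93 (SD, n = 6 libraries) in the CTRL/hnCD16 pair and almost nothing in the FR pair. None of these 3 transcripts overlapped between the pairs. The gene log2 fold change was -0.40.

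ULK3 encodes a serine/threonine kinase linked to autophagy and Hedgehog signalling, and its leading transcripts took each other's place. NM_001284364 held 68.7% to 82.0% in the CTRL/hnCD16 pair (median 74.9%) and had no count in the FR pair, where its share fell by 75.0 points (edgeR adjusted p = 9.63e-17). NM_001099436 held 64.0% to 80.7% in the FR pair (median 73.2%) and had no count in the CTRL/hnCD16 pair, a rise of 73.4 points (edgeR adjusted p = 7.84e-17). At gene level ULK3 had a log2 fold change of 0.08.

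In TOR1AIP1, which encodes the inner nuclear membrane protein LAP1, only 2 transcripts were annotated. NM_001267578 held 69.1%, 80.9% and 86.7% (lowest, median and highest) in the CTRL/hnCD16 pair and 0%, 16.0% and 30.9% in the FR pair, without overlap, and fell by 63.3 points (edgeR adjusted p = 0.028). NM_015602 took the rest, 83.0% ± 10.9 in the FR pair and 19.8% ± 6.63 in the CTRL/hnCD16 pair (SD, n = 6 libraries each), and did not pass (edgeR adjusted p = 0.0879). The call was weak: the offset test gave an adjusted p of 0.112, and it remained in 3 of 12 fits that each left out 1 library, those without FR1 replicate 1, FR1 replicate 2 or FR2 replicate 3.

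The lengths of the exchanged transcripts, which follow from the deposited counts and TPM, differed by few bases in several genes. The difference was 39 ± 0.1 bases (SE) in PARP2, with NM_001042618 the shorter, 5.77 ± 0.16 bases in ULK3, with NM_001099436 the longer, and 3.01 ± 0.15 bases in TOR1AIP1, with NM_015602 the shorter. In CD247, described further on, NM_000734 was 3.04 ± 0.05 bases shorter than NM_198053. Of 12 named genes whose exchanged transcripts differed by at most 60 bases, with an SE under 0.5 bases, these 4 were the ones for which the GENCODE v44 annotation held a pair of splice sites just that far apart, in coding sequence. They are shown 5′ to 3′ on the gene's strand of hg38, because they let a reader see how little sequence separated the transcripts, with the bases that one site keeps in the exon and the other leaves in the intron in capitals. 
PARP2: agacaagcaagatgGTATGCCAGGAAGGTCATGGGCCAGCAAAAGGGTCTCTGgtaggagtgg
ULK3: acttgaaggagcagGTCAAGgtgggcacat
TOR1AIP1: tcttcctatattagCAGtgagtgaaga
CD247: gttgtctttcctagCAGagaaggaaga
The PARP2 bases are a pair of donor sites at chr14:20345088-20345126 (plus strand) and the ULK3 bases a pair of donor sites at chr15:74837751-74837756 (minus strand). TOR1AIP1 and CD247 have tandem acceptor sites, at chr1:179889310-179889312 (plus strand) and chr1:167435432-167435434 (minus strand), each with CAG as the bases in question. The link to the RefSeq transcripts rests on the length alone. Acceptor pairs 3 bases apart were annotated in 664 of 6790 compared genes that GENCODE names (9.78%) and in 45 of 373 genes with a call (12.1%). Donor pairs 6 bases apart were in 94 of these genes (1.38%) and in 11 of the 373 with a call (2.95%), and donor pairs 39 bases apart in 49 (0.722%) and 5 (1.34%). These shares were not tested. By length, where both lengths were known within 1 base, 28 of 207 genes with a call (13.5%) and 431 of 3319 genes tested (12.99%) had exchanged transcripts within 30 bases of each other in length.

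MXI1, a partner of MAX that opposes MYC, moved from one curated transcript to another at the same gene level (log2 fold change -0.01). NM_130439 held 0% to 3.87% in the CTRL/hnCD16 pair (median 1.16%) and 54.6% to 86.6% in the FR pair (median 76.7%), and rose by 73.4 points (edgeR adjusted p = 0.000151). NM_005962 was at 95.03% ± 4.75 and 24.1% ± 11.7 (SD, n = 6 libraries each) and fell by 70.9 points (edgeR adjusted p = 0.0352). The groups did not overlap for either transcript, and of 12 fits that each left out 1 library the second call was kept only in those without CTRL replicate 3 or hnCD16 replicate 2. BCCIP, which encodes a protein that binds BRCA2 and p21, had tight replicates. NM_078468 rose from 28.9% ± 0.835 to 73.1% ± 1.86 (edgeR adjusted p = 2.25e-06), and NM_016567 fell from 55.5% ± 1.39 to 17.6% ± 2.01 (edgeR adjusted p = 7.07e-10). The BCCIP transcripts differed by 199 bases in length, and the level of the gene was lower in the FR pair, with a log2 fold change of -1.07.

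**Figure D2:**
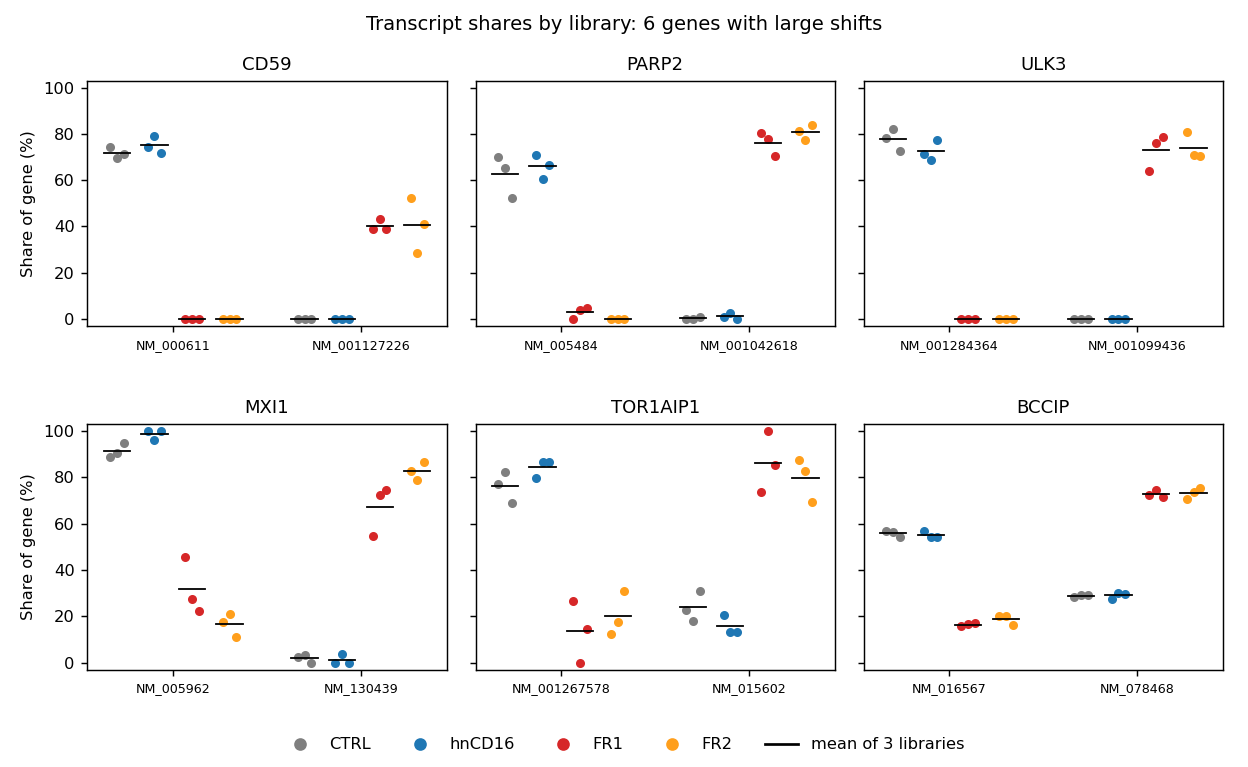
Share of the gene's counts, in percent, held by 2 transcripts of CD59, PARP2, ULK3, MXI1, TOR1AIP1 and BCCIP, with one point per library and a black line at the mean of 3 libraries. In each panel the CTRL and hnCD16 points sit together, away from the FR1 and FR2 points, and the transcript on the left is the one that led in the CTRL/hnCD16 pair.

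Other genes changed their leading transcript in every library. NIN encodes ninein, which anchors microtubules at the centrosome. Its NM_020921 held 41.8% to 51.5% in the CTRL/hnCD16 pair (median 46.2%) and at most 1.60% in the FR pair, and its mean share fell by 46.1 points (edgeR adjusted p = 3.68e-19), while XM_011536822, which was 2142 bases shorter, rose from 38.6% ± 2.68 to 80.7% ± 1.15 (edgeR adjusted p = 0.000323). In CCDC57, a coiled-coil protein gene with 29 transcripts, NM_198082 rose from 3.01% ± 1.45 to 38.7% ± 8.47 (edgeR adjusted p = 0.000492). The long NM_001316321 led in the CTRL/hnCD16 pair at 49.6% ± 0.479 and was at 18.5% ± 2.37 in the FR pair (edgeR adjusted p = 0.0503, not called).

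At similar gene level, as counted in reads without correction for transcript length, 3 more genes were named by rule. In MIA3, which encodes the cargo receptor TANGO1 of the endoplasmic reticulum, XM_017001243 fell from 35.7% ± 5.15 to 9.65% ± 4.49 (edgeR adjusted p = 0.0145, and 0.0511 without FR2 replicate 2) and XM_006711304 from 19.6% ± 6.7 to 3.66% ± 2.29 (edgeR adjusted p = 0.0268, and above 0.05 without CTRL replicate 2, CTRL replicate 3, FR1 replicate 2, FR2 replicate 1 or hnCD16 replicate 3). In ZFYVE16, which encodes the endosomal protein endofin, XM_024446270 rose from 17.2% ± 9.13 to 64.9% ± 10.1 (edgeR adjusted p = 0.0396), and this call remained only in the fit without CTRL replicate 3 among 12 fits without 1 library. The ZFYVE16 transcript was shorter than NM_014733, with a length difference of -3966.62 bases. In MIA3 NM_001300867 was shorter than the falling XM_017001243, with a difference of -1263.78 bases. Similar read counts in these genes therefore need not mean a similar number of mRNA molecules. In PRRC2B the rising NM_001384821 was longer than NM_001384822, with a difference of 177.053 bases. PRRC2B had wide replicates. Its NM_001384821 held 3.80%, 36.8% and 47.5% (lowest, median and highest) in the FR pair and 0%, 0.128% and 8.64% in the CTRL/hnCD16 pair (edgeR adjusted p = 0.00209), and the pairs overlapped.

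HLA-C and TAP2, both of the MHC class I pathway, had transcripts with extra copies on alternate sequences of the genome, and reads of such a polymorphic region may be divided among alleles and copies, so their shares are uncertain. In HLA-C NM_001243042 went from 87.6% ± 2.56 to 2.98% ± 0.697 (edgeR adjusted p = 3.23e-12) and NM_002117 from 12.4% ± 2.56 to 97.0% ± 0.697, and the gene level rose with a log2 fold change of 5.54. TAP2, a subunit of the peptide transporter that loads class I molecules, moved from NM_001290043, at 79.1% ± 3.12 in the CTRL/hnCD16 pair and 23.1% ± 2.54 in the FR pair (edgeR adjusted p = 1.47e-05), to NM_018833 and NM_000544, which rose by 28.9 and 27.0 points. Genes with such copies were 25 of the 376 with a call (6.65%), against 5.33% of genes tested.

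Shift in share and change in gene level were also set side by side. At gene level 5179 of 13657 genes differed between the pairs (37.9%, edgeR adjusted p of at most 0.05 and an absolute log2 fold change of 1 or more). Among the 376 genes with a called transcript, 154 also differed in level (41.0%), against 1455 of the 6717 genes tested for shares (21.7%). A further 68 (18.1%) had an absolute log2 fold change under 0.25, against 27.7% of genes tested. CD59, ULK3 and MXI1 belong to these 68 genes, while HLA-C and IKZF3 combined a shift with a log2 fold change above 5. Predicted transcripts made up 34.2% of the called and 42.3% of the tested transcripts.

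**Figure D3:**
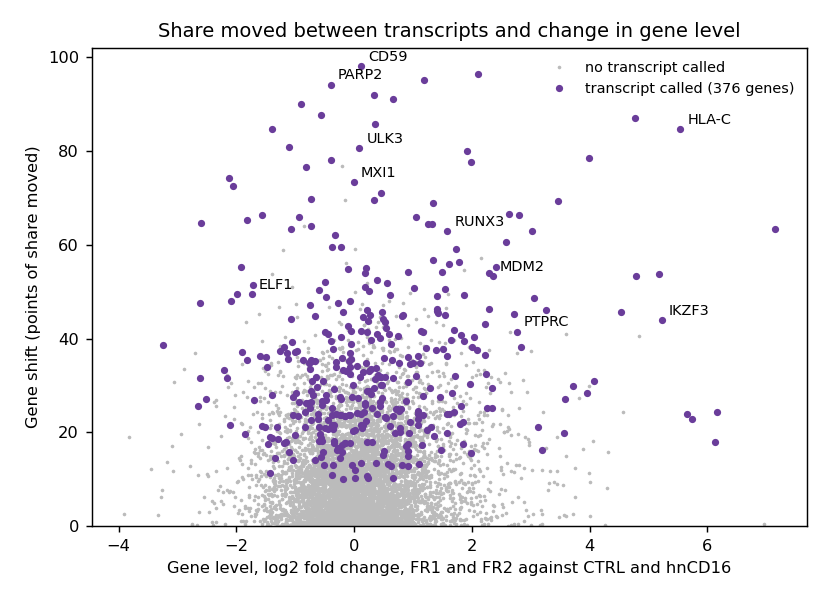
Gene shift (points of share moved between transcripts, vertical) against the log2 fold change of the gene, FR1 and FR2 against CTRL and hnCD16 (horizontal), one point per gene of the comparison. The 376 genes with a called transcript (purple) spread over the whole range of gene level, and CD59, PARP2, ULK3 and MXI1 combine a gene shift of 73.4 points or more with a log2 fold change between -0.40 and 0.12.

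Among the lymphoid transcription factors, 26 of the 36 listed genes could be tested and 4 had a call (15.4%, against 5.6% of all genes tested): RUNX3, ELF1, IKZF3 and RUNX1. The median gene shift of the list was 18.2 points, against 9.59 points over all genes tested. RUNX3, a RUNX factor of NK and CD8 T cells, is transcribed from a distal and a proximal promoter. NM_004350, from the proximal promoter, held 96.8%, 97.7% and 100% of RUNX3 counts in the CTRL/hnCD16 pair (lowest, median and highest) and 30.8%, 34.8% and 42.7% in the FR pair, and fell by 62.9 points (edgeR adjusted p = 0.00235). NM_001031680, from the distal promoter, had no count in the CTRL/hnCD16 pair and held 39.1%, 49.3% and 63.4% in the FR pair (edgeR adjusted p = 3.51e-13). The libraries did not overlap, and the level of RUNX3 was higher in the FR pair, with a log2 fold change of 1.58.

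RUNX1 has the same promoter arrangement. Its distal NM_001754 fell from 18.2% ± 2.45 to 2.28% ± 3.07 (edgeR adjusted p = 0.000932, but 0.119 in the offset test), and its proximal NM_001001890 was at 66.1% ± 2.03 and 80.6% ± 5.01 (edgeR adjusted p = 0.986, not called). RUNX1 was lower at gene level, with a log2 fold change of -2.11. The distal transcript thus had the larger share in the FR pair for RUNX3 and in the CTRL/hnCD16 pair for RUNX1. In ELF1, an ETS factor of lymphoid cells, NM_001370331 held 47.0% to 57.9% in the CTRL/hnCD16 pair (median 52.0%) and at most 9.74% in the FR pair (edgeR adjusted p = 1.85e-08), where NM_172373 led at 77.03% ± 7.14. In IKZF3, which encodes the zinc finger factor Aiolos, NM_001284516 held 44.2% to 54.5% in the FR pair (median 47.9%) and at most 13.3% in the CTRL/hnCD16 pair, a rise of 43.3 points (edgeR adjusted p = 7.36e-12). The IKZF3 level rose with a log2 fold change of 5.22, and its lowest library held 203 counts, so the CTRL/hnCD16 shares rest on few reads.

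Of 32 lymphocyte genes known for regulated splicing, 19 were tested and 3 had a call, PTPRC, FYN and CD47 (15.8%, against 5.6% of all genes tested). The median gene shift was 17.8 points, against 9.59 over all genes tested. PTPRC encodes CD45, and its curated NM_080921 held 9.82%, 18.2% and 23.4% (lowest, median and highest) in the CTRL/hnCD16 pair and 49.7%, 59.6% and 66.8% in the FR pair (edgeR adjusted p = 6.46e-09), while the predicted XM_006711474 fell by 37.5 points (edgeR adjusted p = 0.000451). Transcripts of PTPRC also had copies on alternate sequences. FYN encodes a Src family kinase with a brain-type (FynB, NM_002037) and a T cell-type (FynT, NM_153047) form. The predicted XM_017010650 held 21.3% to 25.0% of FYN counts in the FR pair (median 23.1%) and had no count in the CTRL/hnCD16 pair (edgeR adjusted p = 8.49e-15), and XM_017010652 rose by 11.1 points (edgeR adjusted p = 3.57e-05). FynT led in both pairs, at 50.3% ± 5.11 and 40.5% ± 2.02, and FynB was at 31.5% ± 4.998 in the CTRL/hnCD16 pair and 7.78% ± 0.714 in the FR pair (edgeR adjusted p = 0.0514, not called). In CD47, the ligand of the phagocytosis checkpoint SIRPα, NM_001777 rose from 9.76% ± 1.14 to 24.9% ± 3.48 (edgeR adjusted p = 0.000127) without overlap. As T and NK markers differed between the pairs in the ranges given above, their part in these lymphocyte genes was not tested.

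**Figure D4:**
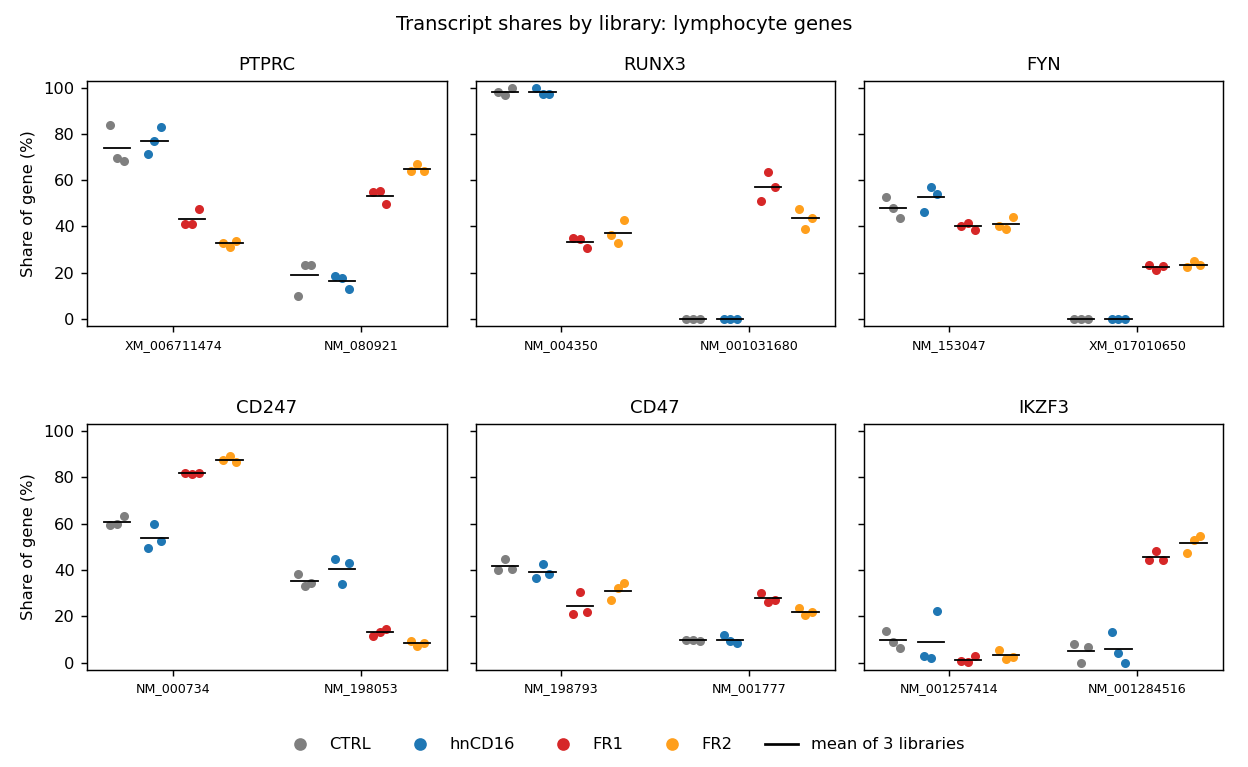
Share of the gene's counts, in percent, held by 2 transcripts of PTPRC, RUNX3, FYN, CD247, CD47 and IKZF3, with one point per library and a black line at the mean of 3 libraries. RUNX3 NM_001031680 and FYN XM_017010650 lie at 0 in all CTRL and hnCD16 libraries. The FR1 and FR2 points of this FYN transcript lie close together, and those of this RUNX3 transcript spread more widely.

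Receptor-proximal signalling had 24 of 37 genes tested, and 5 had a call: SHC1, PIK3CD, ZAP70, CD244 and CD247 (20.8%, against 5.6% of all genes tested). The offset test also called 3 of the 5, and the median gene shift was 16.1 points, against 9.59 over all genes tested. In SHC1, an adaptor between receptors and Ras, NM_001130040 rose from 3.37% ± 1.295 to 50.5% ± 4.83 (edgeR adjusted p = 3.27e-08), with all FR libraries above all others. PIK3CD, the leukocyte PI3K catalytic subunit, had few counts, 120 in its lowest library, and its XM_024447663 held 22.0% to 38.2% in the FR pair and 0% to 23.8% in the CTRL/hnCD16 pair (edgeR adjusted p = 1.1e-05), with overlap.

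CD247 (CD3ζ), CD244 (2B4) and HCST (DAP10) also supply domains to the fusion receptors. Of the 5 listed construct genes 3 passed the count rule, and CD247 and CD244 had a call (66.7%, against 5.6% of all genes tested). A share of only 3 genes says little. The offset test shared the call in CD247 but not that in CD244. CD244 had few counts, 115 in its lowest library, and a log2 fold change of 3.95 in level. Whether reads from the vectors were counted in these genes was not tested. In CD247 NM_198053 held 33.1%, 36.4% and 44.6% in the CTRL/hnCD16 pair and 7.33%, 10.4% and 14.5% in the FR pair (lowest, median and highest), and fell by 27.2 points without overlap (edgeR adjusted p = 0.000944). The transcript 3.04 bases shorter, NM_000734, was at 57.4% ± 5.21 and 84.7% ± 3.30 (edgeR adjusted p = 0.24, and 3.93e-05 in the offset test). In CD244 NM_016382 held 42.1% ± 5.55 in FR1 and 76.6% ± 3.22 in FR2, against 83.5% ± 3.69 in hnCD16 and 92.2% ± 13.5 in CTRL (SD, n = 3 libraries each), so the FR1 libraries stood apart from the FR2 libraries, although this transcript was not called (edgeR adjusted p = 0.862 for FR1 against FR2). NM_001166664 of CD244 rose by 12.5 points (edgeR adjusted p = 0.00703, and 0.0566 in the offset test), with overlap. In HCST NM_014266 was at 22.6% ± 8.56 in the CTRL/hnCD16 pair and 70.2% ± 6.65 in the FR pair without overlap, and was not called (edgeR adjusted p = 0.304, and 0.00309 in the offset test).

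The actin and membrane skeleton list had 29 of 38 genes tested and 5 with a call, among them WIPF1, DNM2, SEPTIN9 and SPTBN1 (17.2%, against 5.6% of all genes tested). The median gene shift of the list was 8.41 points, against 9.59 over all genes tested. WIPF1 encodes WIP, which binds and protects the Wiskott-Aldrich syndrome protein. Its NM_001375834 rose from 5.91% ± 3.14 to 59.996% ± 3.24 (edgeR adjusted p = 2.19e-07), and NM_003387 fell from 60.3% ± 8.86 to 9.28% ± 8.75 (edgeR adjusted p = 0.0344, kept only without FR2 replicate 3 or hnCD16 replicate 2). In SPTBN1, a beta spectrin, XM_005264518 fell from 33.5% ± 2.56 to 10.5% ± 4.40 (edgeR adjusted p = 2.07e-05). SEPTIN9 moved from NM_001293697, at 68.9% ± 1.42 and 34.0% ± 5.26, to NM_001113493, at 21.1% ± 4.22 and 53.0% ± 10.8, but both calls were near the threshold (edgeR adjusted p = 0.0288 and 0.022). Both were lost without any 1 of the 3 CTRL libraries or FR2 replicate 1, the first also without FR1 replicate 2, FR1 replicate 3 or hnCD16 replicate 1, and the second also without FR1 replicate 1 or hnCD16 replicate 2. DNM2, the dynamin of vesicle scission, moved from NM_001005362 (34.4% ± 7.52 to 4.53% ± 3.80, edgeR adjusted p = 0.019) to NM_001005360 (6.19% ± 6.73 to 33.0% ± 8.70, edgeR adjusted p = 0.0225), neither of which passed the offset test. Both DNM2 calls were lost without FR1 replicate 1, FR2 replicate 1 or FR2 replicate 3, and the second also without CTRL replicate 1, hnCD16 replicate 1 or hnCD16 replicate 2.

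In the apoptosis list, 2 of 22 tested genes had a call (9.09%, against 5.6% of all genes tested), and the median gene shift was 8.96 points, against 9.59 over all genes tested. MDM2, the ubiquitin ligase of p53, moved to NM_001367990, which held 12.04%, 16.0% and 17.5% in the CTRL/hnCD16 pair and 63.9%, 69.2% and 72.3% in the FR pair (lowest, median and highest), a rise of 53.3 points (edgeR adjusted p = 3.18e-16). NM_002392 fell by 19.9 points (edgeR adjusted p = 2.12e-10) and XM_006719400 fell by 16.4 points (edgeR adjusted p = 8.86e-06). With 3671 counts in its lowest library, MDM2 was the best covered of the named genes with a gene shift above 50 points, and its level rose as well (log2 fold change 2.35). CFLAR encodes c-FLIP, which holds back caspase-8, and its NM_001351591 rose from 2.86% ± 0.659 to 23.6% ± 1.32 (edgeR adjusted p = 4.29e-10).

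In the remaining lists 4.35% to 9.09% of the genes tested had a call, near the 5.6% of all genes tested. Of 48 tested splicing regulators, 3 had a call (median gene shift 9.12 points, against 9.59 over all genes tested). HNRNPLL, which is known to repress CD45 exons, had a rise in NM_001142650, which had no count in the CTRL/hnCD16 pair and held 0.0387% to 25.4% in the FR pair (edgeR adjusted p = 4.76e-08, with a shift below 10 points without FR2 replicate 1 or FR2 replicate 2). HNRNPC XM_011536712 fell by 10.3 points (edgeR adjusted p = 1.4e-08, with a shift below 10 points without CTRL replicate 3). HNRNPF NM_001098206 rose by 14.7 points (edgeR adjusted p = 0.0389, kept only without CTRL replicate 1, FR1 replicate 1, FR2 replicate 3 or hnCD16 replicate 2). Of 33 metabolic enzymes, ACLY, ACSL4 and OGDH had a call. In ACLY, the enzyme that makes cytosolic acetyl-CoA from citrate, NM_001303275 fell from 12.9% ± 2.84 to 2.17% ± 3.13 (edgeR adjusted p = 5.62e-09, with a shift below 10 points without CTRL replicate 3). In ACSL4, an acyl-CoA synthetase for arachidonate, NM_001318509 rose by 11.5 points (edgeR adjusted p = 0.00174). OGDH NM_002541 held 1.71% to 34.2% in the FR pair and had no count in the CTRL/hnCD16 pair (edgeR adjusted p = 2.43e-07). Of 23 genes of membrane traffic and granule release, only SRGN, the proteoglycan core of cytotoxic granules, had a call: NM_001321053 fell from 20.3% ± 6.61 to 0.608% ± 0.629 (edgeR adjusted p = 6.07e-06).

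Isoform usage was also compared within each pair, where a test that missed many simulated shifts could leave differences uncalled. The correlation of shares across transcripts, a description over transcripts of the same annotation, was 0.927 to 0.938 between libraries of one group, 0.928 to 0.935 between the groups of a pair, and 0.897 to 0.908 between the pairs. For hnCD16 against CTRL 10 transcripts were called (0.0245% of 40803), and for FR1 against FR2 7 were called (0.0172%). FR1 against CTRL gave 232 (0.569%) and FR2 against hnCD16 gave 227 (0.556%). The latter comparisons use no library in common, and 125 transcripts were called in both, all of them in the same direction, which is 53.9% of the first set and 55.1% of the second. At an unadjusted edgeR p under 0.05 the numbers, each of 40803 tested, were 2308 for hnCD16 against CTRL and 2483 for FR1 against FR2. For the FR pair against the CTRL/hnCD16 pair the number was 4811. With no difference at all, a fraction of about 0.05 of the tested transcripts would pass, so these are not counts of differences.

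**Figure D5:**
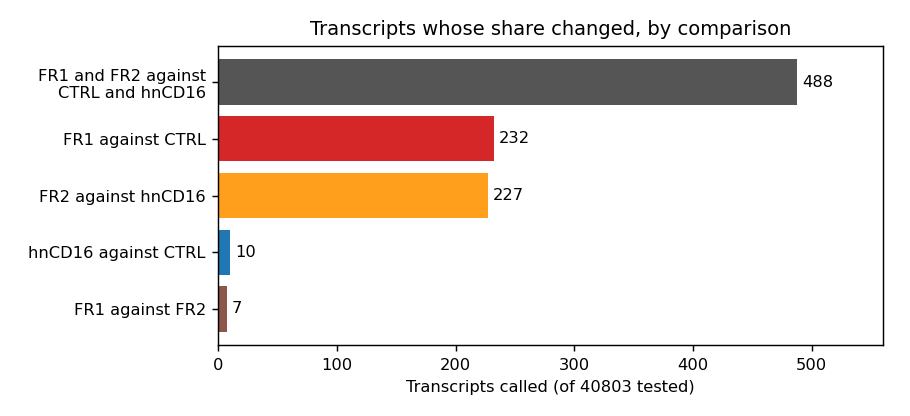
Number of transcripts called in each comparison, of 40803 tested (bars start at 0). The bars of the 3 comparisons between the pairs reach 488, 232 and 227, and those of the comparisons within a pair, hnCD16 against CTRL and FR1 against FR2, reach 10 and 7.

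Several transcripts called within a pair varied widely between libraries of one group. In hnCD16 against CTRL, PKN2 NM_006256 held 6.79%, 25.5% and 13.1% in CTRL and almost nothing in hnCD16 (edgeR adjusted p = 0.0141). The same transcript of PKN2, a serine/threonine kinase, held 35.0%, 9.27% and 14.1% in FR1 and had no count in FR2 (edgeR adjusted p = 0.0124). GON4L NM_001282860 held 64.8%, 3.09% and 37.6% in hnCD16 and almost nothing in CTRL (edgeR adjusted p = 0.0353). RNF213, a large ubiquitin ligase, had XM_005257546 at 14.5% ± 6.38 in CTRL and 1.89% ± 3.27 in hnCD16 (edgeR adjusted p = 0.00606). In FR1 against FR2, EXT2 NM_000401 held 76.8%, 75.0% and 0% in the FR1 libraries and at most 0.00161% in FR2 (edgeR adjusted p = 0.0225). The same EXT2 transcript was also called between the pairs, as lower in the FR pair. There its shift ran from -44.4 to -29.1 points in the fits without 1 library, so such spread also reaches calls between the pairs. PDPK1 NM_031268 held 23.5%, 0% and 17.3% in FR1 and at most 0.0271% in FR2 (edgeR adjusted p = 0.00892). Shares of one transcript thus ranged from 0% to over 70% within a group of 3 libraries, as in EXT2, and the number of calls moved with single libraries: hnCD16 against CTRL gave 16 without CTRL replicate 1, 17 without hnCD16 replicate 2 and 5 without hnCD16 replicate 3, and FR1 against FR2 gave 11 without FR1 replicate 2 and 4 without FR2 replicate 1.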

How the data were processed

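Per the labels, total RNA of transduced YT cells was sequenced in 12 libraries, 3 for each of 4 groups. The authors mapped reads to GRCh38.p13 with HISAT2 2.1.0 and quantified RefSeq transcripts with RSEM 1.3.1. The submitters' processing notes also name Bowtie2 2.3.4.3. The deposited transcript table holds RSEM expected counts, estimates that divide shared reads among transcripts, with TPM and FPKM beside them, which the authors normalized for length and depth. Transcript counts added up to the deposited gene count within 0.5 counts in 100% of values.

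Copies of an accession on alternate sequences were summed, and shares were computed from expected counts. Transcripts with 10 or more rounded counts in at least 3 libraries were tested in genes with 2 or more such transcripts, with edgeR 4.0.16 (TMM, glmQLFit, diffSpliceDGE, 1 coefficient per group). The common dispersion was 1.35. In simulated data this test missed many of the changed genes, most of those with the smaller shift, and called some unchanged genes. A transcript not called may therefore have shifted, and a called one may be a false call. Calls shared with the edgeR offset test are given. The gene level was tested with edgeR on gene expected counts, without correction for transcript length. Alternatives used limma 3.58.1 and DESeq2 1.42.0. Relative lengths came from deposited counts and TPM, with FPKM used only for a scale factor of each library. Errors are SDs over libraries.

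Genes named are those with the largest gene shift among the called ones with 500 or more counts in every library, 12 by a changed leading transcript in all libraries, 6 with an absolute gene log2 fold change under 0.25, up to 4 called genes per list, every construct gene that passed, and 3 for each comparison within a pair. Members, lists and this rule were chosen with earlier results of these data known. Splice sites came from GENCODE v44 on hg38.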

Additional observations from a re-analysis of the deposited data

Results flagged for a closer look

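The shift FR1 minus CTRL and the shift FR2 minus hnCD16 were compared by an interaction term (edgeR, adjusted over all transcripts tested). In 3 named transcripts they differed. The number that differed among all transcripts tested is not given here, so the 3 have no background share. Both ACLY differences below were smaller than the 10 points used for calls. For ACLY NM_001303275 the difference between the shifts was -5.17 points (adjusted p = 0.00359), from shifts of -13.4 and -8.19 points, both downward. For ACLY NM_198830 it was -3.66 points (adjusted p = 0.0054), from shifts of -11.7 and -8.08 points. Both ACLY transcripts had no count in the 3 FR1 libraries and 4.33% and 4.62% in FR2. For GON4L NM_001282860 the shifts were 21.6 and -30.6 points, 52.1 points apart (adjusted p = 0.0286), with shares of 2.50%, 10.2% and 52.0% in the FR1 libraries and 64.8%, 3.09% and 37.6% in the hnCD16 libraries.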

How the results depend on the processing

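The number of transcripts called between the pairs, 488, was 415 to 448 without 1 library, and depended on test and threshold: it was 271 with 500 or more counts per gene, 2021 with DESeq2, 1188 with the edgeR offset test, 2142 with limma voom, 1633 on logit shares, 2347 on TPM shares, and 1123, 755 and 263 with no threshold, 5 points and 20 points. Of the 488, these 5 tests called 453, 339, 454, 427 and 409 again in the order named. Kept apart, a choice added after the data were seen, the copies of an accession gave 571 calls, 461 of them among the 488. In the same order, genes with a call (376) numbered 207, 1334, 836, 1355, 1081, 1503, 800, 569 and 199, and 328 to 354 without 1 library. Genes with a changed leading transcript and a call on a leading transcript (130) numbered 55 with 500 counts, 459 by TPM, 40 when every library had to show it, and 109 to 123 without 1 library. FR1 against CTRL (232) gave 142 with 500 counts, 1629, 696, 1574, 977 and 1881 by the 5 tests, 132 at 20 points, and 170 to 242 without 1 library. FR2 against hnCD16 (227) gave 136, then 1612, 682, 1495, 963 and 1876, and 163 to 229 without 1 library. For hnCD16 against CTRL (10) the values were 3, then 178, 4, 64, 20 and 4, then 27, 16 and 3 by threshold, and 5 to 17 without 1 library. FR1 against FR2 (7) gave 11 without the filter on low transcripts, 204, 11, 109 and 18 by the first 4 tests, 22, 11 and 2 by threshold, and 4 to 11 without 1 library. The cause was not tested, beyond fewer genes or transcripts entering where a minimum was raised.

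Replicate numbers did not pair the libraries: correlations of same-numbered libraries' deviations were -0.0129 to 0.0145 over 18 pairs. With the replicate block 427 transcripts were called between the pairs, 413 of them among the 488, 4 for hnCD16 against CTRL and 2 for FR1 against FR2. For 1 transcript in each of the 43 named genes, no alternative reversed a shift. The call status was kept in 36 of 43 by the offset test, 37 by TPM, 39 of 41 with an adjusted p by DESeq2, 40 with the block, and 473 of 516 fits without 1 library. Further called transcripts of these genes are not in these counts, and some were fragile. MXI1 NM_005962 and WIPF1 NM_003387 each kept the call in 2 of 12 fits without 1 library. Shares of transcripts differing by a few bases rest on the few reads that tell them apart, whose number the files do not give.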
